A study of Mus musculus with 354 samples.

Results

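The transcripts of 10 genes for cytokines and cytokine receptors were followed through single supporting cells (SCs) of the P3 mouse cochlea, out of 55367 genes in the count files and 39201 with at least 1 count. They are *Il12a*, *Il12b*, *Ebi3*, *Il2rg*, *Il4ra*, *Il6st*, *Il27ra*, *Il7r*, *Lif* and *Lifr*. All rows with these symbols were taken from the count file of each cell. *Il12a*, *Il2rg* and *Lif* were selected on their measured expression difference between these same genotypes, for which the study had listed them, and the others were added because their products pair with or bind the products of those genes. The levels of all 10 between genotypes are therefore given as a description, and nothing about them is read from the calls of the fit across all genes.

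CA-ERBB2 pups carried the inducible transgene TetON-CAERBB2 on top of the ROSA-floxed-rtTA/GFP allele and the Fgfr3-iCre driver, while Control littermates had only that allele and that driver. All pups of both genotypes received 75 mg/kg tamoxifen at P0 and P1 and 100 mg/kg doxycycline at P2, and their cochleae were collected at P3. The *Fgfr3* promoter directs the recombinase to SCs, and GFP+ cells of several pooled pups were sorted into each plate. Each genotype had 3 plates of 59 wells sorted as single cells, and a plate, read as a separate FACS experiment, served as the replicate. The labels do not say which pup a cell came from, and the spread between plates may be partly technical.

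Cytokines of the IL-12 family are dimers. The protein of *Il12a*, p35, forms interleukin-12 with the protein of *Il12b*, p40, and interleukin-35 with that of *Ebi3*, which also forms interleukin-27 with the protein of *Il27*. The product of *Il2rg*, the common gamma chain, binds no cytokine alone. It joins a second chain, such as those of *Il4ra*, *Il7r*, *Il2rb*, *Il9r* or *Il21r*, and signals through the kinase JAK3. The product of *Il6st*, gp130, is the shared chain for interleukin-6, interleukin-27 and LIF, with the chains of *Il27ra* and *Lifr* beside it. All 3 groups are best known from immune cells, and gp130 is found in most tissues.

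Cells had between 1443 and 5178221 counts in total, with medians of 2842085 for CA-ERBB2 and 2885635 for Control. Fewer than 100000 counts were found in 2 CA-ERBB2 and 33 Control cells. Plate 1 of each genotype had more genes per cell than plates 2 and 3, with medians of 10095 and 8434 genes outside wells A12 to D12, against 1216 to 2916 on the other 4 plates. Wells A12 to D12 stood apart on every plate, with medians between 13145.5 and 17397 genes per cell, and the labels do not mark them as different. Whether each of these wells held 1 cell was not tested, so a pair of genes in such a well is not shown to be in 1 cell. Pairs of genes in the same cell are therefore given with and without those 24 wells where the result turns on them, and by plate where the shares of the plates differ. The count files of 0 cells were identical to those of another. *Erbb2*, the gene whose active form was induced, was at 86.1 ± 52.3 CPM (the share of all counts times 1e6) on the CA-ERBB2 plates and at 13.8 ± 11.2 CPM on the Control plates (mean ± SD, n = 3), without overlap. Whether reads of the transgene map to mouse *Erbb2* was not tested.

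*Il12a* lies on chromosome 3 of GRCm38, chr3:68690644-68698547 on the plus strand. The study measured it by RT-qPCR with a primer pair, shown here because it marks the stretch of the transcript that was amplified. The forward primer lies in exon 5 (chr3:68695191-68695212) and the reverse primer in exon 7 (chr3:68695442-68695464) of the protein-coding transcript Il12a-201, both within the coding sequence, and they enclose 111 bases of it. No second gene had both primers in Gencode M21.
*Il12a* forward: acgagagttgcctggctactag
*Il12a* reverse: cctcatagatgctaccaaggcac

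*Il2rg* lies on the minus strand of the X chromosome, chrX:101264378-101268255. The 250 bases before each annotated start of *Il12a* and *Il2rg* are shown because transcripts of both genes were found in the same cells. They are RefSeq sequences of GRCm38.p6, 5′ to 3′ on the strand of the gene, at chr3:68690394-68690643 and chr3:68691174-68691423 for the start sites of *Il12a* and at chrX:101268256-101268505 for that of *Il2rg*. Capitals mark matches to 4 motifs searched on both strands, TGANTCA (AP-1), CGGAAG (ETS), TTCNNNGAA (STAT) and TGTGGT (RUNX), and no match overlapped another.
*Il12a* start 1: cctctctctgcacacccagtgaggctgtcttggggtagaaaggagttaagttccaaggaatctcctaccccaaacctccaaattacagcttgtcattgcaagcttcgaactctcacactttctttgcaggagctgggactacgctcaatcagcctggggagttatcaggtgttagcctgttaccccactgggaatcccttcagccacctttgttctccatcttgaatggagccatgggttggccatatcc
*Il12a* start 2: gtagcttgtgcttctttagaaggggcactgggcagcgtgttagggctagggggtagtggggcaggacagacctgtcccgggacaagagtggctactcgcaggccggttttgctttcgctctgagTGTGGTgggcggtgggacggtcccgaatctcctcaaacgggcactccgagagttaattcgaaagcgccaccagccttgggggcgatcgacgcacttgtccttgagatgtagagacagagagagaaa
*Il2rg* start: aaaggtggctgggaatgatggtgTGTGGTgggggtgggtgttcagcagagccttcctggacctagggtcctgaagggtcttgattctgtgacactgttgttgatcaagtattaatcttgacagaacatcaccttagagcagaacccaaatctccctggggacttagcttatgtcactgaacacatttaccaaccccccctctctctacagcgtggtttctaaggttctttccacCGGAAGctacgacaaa
The RUNX letters stood 126 bases before the second start of *Il12a* and 227 bases before that of *Il2rg*, and occurred in 14.0% of all 32851 windows of this length. The ETS letters stood 16 bases before the start of *Il2rg*, and occurred in 13.6% of all windows. The AP-1 and STAT letters, held by 6.75% and 7.02% of all windows, were not in these 3 windows. A match is a description of letters only, and which start the cells used cannot be told apart from counts per gene.

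*Il12a*, the p35 subunit, was counted in CA-ERBB2 cells and in no Control cell. Its level was 5.08, 204 and 215 CPM on CA-ERBB2 plates 1, 2 and 3, and 0 on all 3 Control plates. CA-ERBB2 plate 1 was thus far below the other CA-ERBB2 plates, but above every Control plate. The transcripts came from 5, 11 and 13 of 59 cells, together 29 cells or 16.4% (exact binomial 95% interval 11.3 to 22.7), and its absence from all Control cells allows a share of up to 1.69% of cells with a count. That limit follows from the number of cells and is no limit on cells that express the gene, since 33 Control cells were shallow. The pooled counts of the CA-ERBB2 plates were at least 17382.5-fold higher than 3 counts over the Control plates. Within the 29 cells the level ran from 0.442 CPM through a median of 198 to 2976 CPM, and the 3 highest cells held 39.0% of all *Il12a* counts. So *Il12a* was abundant in a minority of cells, and it was not seen at a low level in most cells. After thinning each cell to 100000 counts it was found in 27 of 175 CA-ERBB2 and 0 of 144 Control cells, and without wells A12 to D12 in 21 of 165 and 0 of 165. These intervals and limits cover counting error only, since reads without molecular identifiers are not independent molecules.

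**Figure D1:**
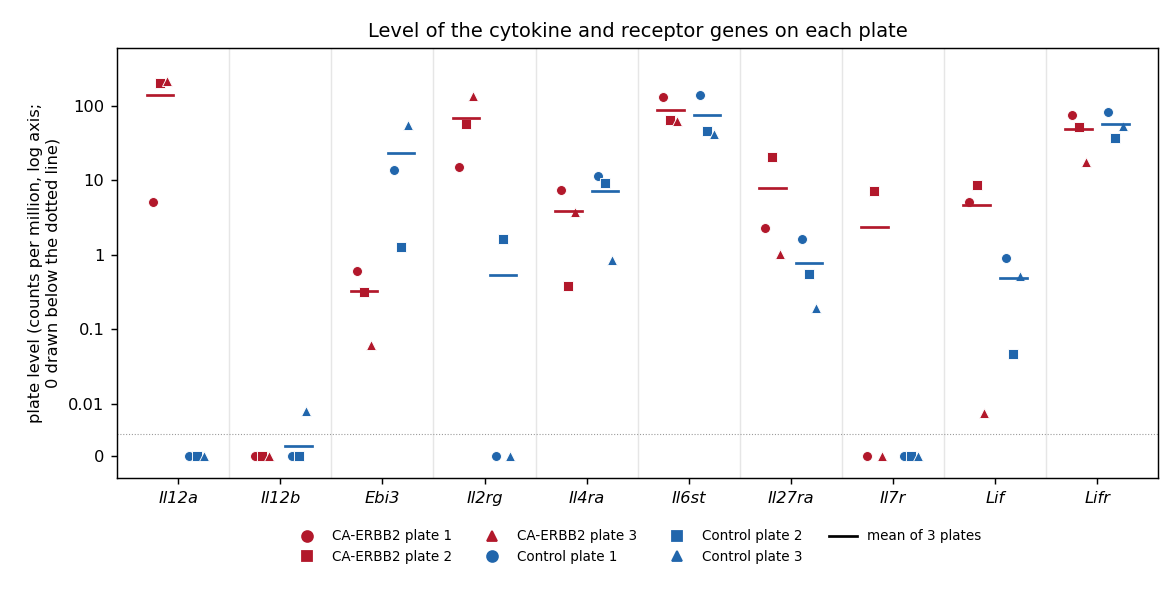
Level of each of the 10 genes on each plate, in CPM of the summed counts of 59 cells on a log axis, for CA-ERBB2 (red) and Control (blue). Circles, squares and triangles are plates 1, 2 and 3, lines the mean of 3 plates, and 0 is drawn below the dotted line. The CA-ERBB2 points of *Il12a* and *Il2rg* lie above all Control points, those of *Ebi3* below all Control points, and *Il6st* and *Lifr* overlap.

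The partner subunits did not follow *Il12a*. *Il12b*, the p40 subunit, (chr11:44400063-44414033, plus strand) had 0 counts in every CA-ERBB2 cell and 1 count in 1 Control cell of plate 3. *Ebi3* (chr17:55952640-55957022, plus strand) stood at 0.610, 0.321 and 0.0609 CPM on the CA-ERBB2 plates and at 13.6, 1.28 and 55.7 CPM on the Control plates. Every CA-ERBB2 plate was below every Control plate, and the Control mean was 71.2-fold higher. That level, however, came from few cells: 1 Control cell of plate 3, at 1714 CPM, held 70.4% of the Control counts, and without it that plate stood at 1.64 CPM. The number of cells with *Ebi3* overlapped between the genotypes, with 8, 2 and 1 of 59 on the CA-ERBB2 plates and 8, 3 and 2 of 59 on the Control plates. In CA-ERBB2 cells *Ebi3* reached 14.7 CPM at most. Of its 1154 exon bases, 270 overlap *Gm16712* on the opposite strand, which had counts in all 11 CA-ERBB2 and all 13 Control cells with *Ebi3*. The authors counted by strand, but whether the library kit keeps the strand is not given in the sources used here, so reads of these overlapping genes cannot be told apart with certainty.

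Within cells, *Il12a* was mostly alone. Of the 29 *Il12a* cells, 6 (20.7%, exact binomial 95% interval 7.99 to 39.7) also had *Ebi3*, and 0 had *Il12b*, which allows a share of up to 10.3%. *Ebi3* was also found in 5 of 148 CA-ERBB2 cells without *Il12a* (3.38%). By plate it was 3 of 5, 2 of 11 and 1 of 13 cells, against 5 of 54, 0 of 48 and 0 of 46 cells without *Il12a*. On plate 1, well B12 had 13.7 CPM of *Il12a* and 14.7 CPM of *Ebi3*, well D12 had 72.5 and 4.09 CPM, and well B6 had 67.8 and 0.317 CPM, the last from 1 count. On plate 2, well A12 had 141 CPM of *Il12a* and 2.64 CPM of *Ebi3*, and well C12 had 8.73 and 12.6 CPM. On plate 3, well D12 had 550 and 2.2 CPM.

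Of these 6 cells, 5 were in wells A12 to D12, where the number of genes per cell was highest. Without those wells 1 of 21 *Il12a* cells had *Ebi3* (4.76%), against 4 of 144 cells without *Il12a* (2.78%), and all of these were on plate 1. With a level of at least 10 CPM for both genes it was 1 of 26 cells (3.85%), and in thinned cells 2 of 27 (7.41%). Among the 16 cells with at least 100 CPM of *Il12a* outside those wells, none had *Ebi3*, which allows a share of up to 18.8%. *Il27*, whose product is the other partner of the *Ebi3* protein, was in 2 of the 11 CA-ERBB2 and 4 of the 13 Control cells with *Ebi3*. It was in 6 of 166 and 4 of 164 cells without *Ebi3*. The 2 CA-ERBB2 cells, with 1 count of *Il27* each, and 2 of the 4 Control cells were in wells A12 to D12.

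**Figure D2:**
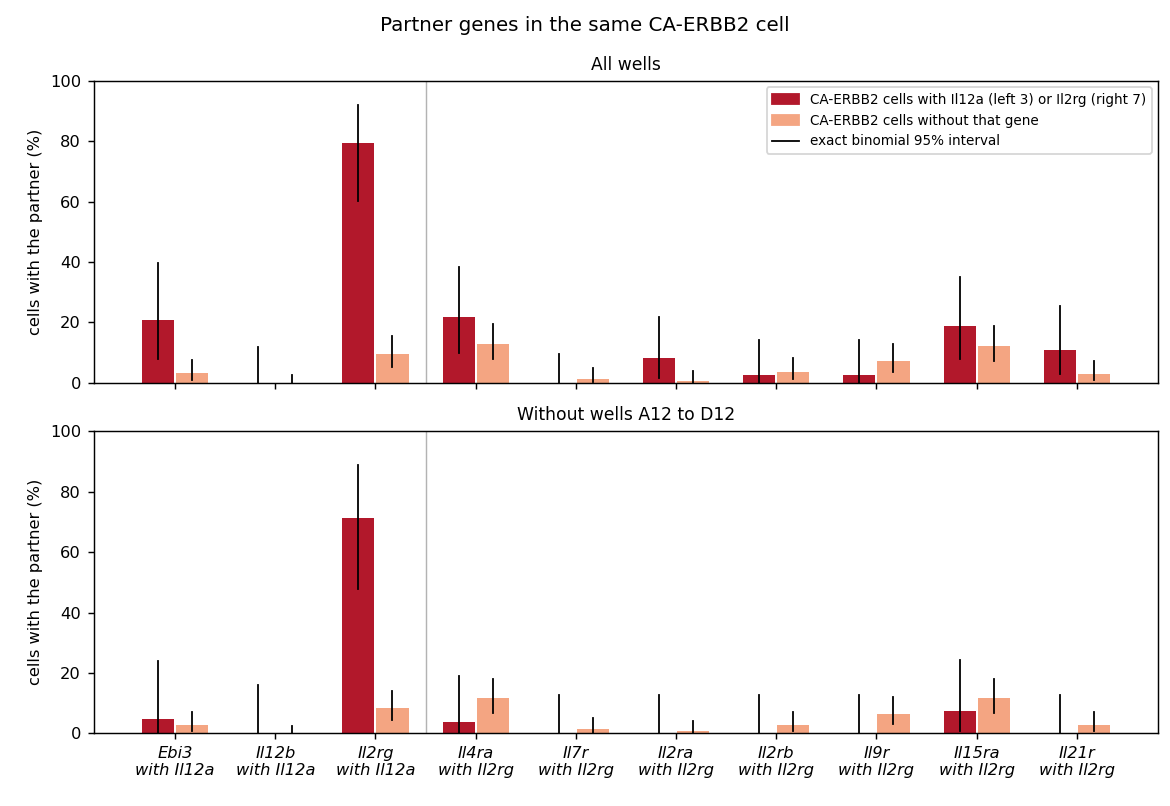
Share of CA-ERBB2 cells with a partner gene (%), in cells with *Il12a* (left 3 pairs of bars) or *Il2rg* (right 7 pairs) in dark red and in CA-ERBB2 cells without that gene in orange, for all wells (top) and without wells A12 to D12 (bottom). Lines are exact binomial 95% intervals over cells, which are not replicates. *Il2rg* was in 79.3% of *Il12a* cells, while the bar of *Ebi3* falls from 20.7% to 4.76% without those wells.

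*Il2rg*, the common gamma chain, was also a gene of a minority of CA-ERBB2 cells. Its level was 15.2, 57.1 and 137 CPM on CA-ERBB2 plates 1, 2 and 3, and 0, 1.63 and 0 CPM on the Control plates. The lowest CA-ERBB2 plate exceeded the highest Control plate, and the CA-ERBB2 mean was 128-fold higher. It was detected in 6, 14 and 17 of 59 CA-ERBB2 cells, together 20.9% (15.2 to 27.6), and in 4 Control cells (2.26%), all of plate 2. The Control cells had between 5.18 and 30.3 CPM, and 3 of the 4 were in wells A12 to D12. In CA-ERBB2 cells the level ran from 0.302 CPM through a median of 108 to 4530 CPM. After thinning, 31 of 175 CA-ERBB2 and 2 of 144 Control cells had *Il2rg*, and without wells A12 to D12 it was 27 of 165 and 1 of 165. Of its 2387 exon bases, 728 overlap *Gm20489* on the same strand, which had 0 counts in every cell, and whether reads in the shared bases were counted is not given in the sources used here.

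*Il2rg* and *Il12a* were found in the same cells. Of the 29 *Il12a* cells 23 had *Il2rg* (79.3%, 60.3 to 92), against 14 of 148 CA-ERBB2 cells without *Il12a* (9.46%). By plate it was 4 of 5, 9 of 11 and 10 of 13, so each plate showed the same order. Without wells A12 to D12 it was 15 of 21 against 12 of 144, in thinned cells 19 of 27 against 12 of 148, and at 10 CPM or more 19 of 26 against 12 of 151. Over the 59 cells of each of the 3 CA-ERBB2 plates, Pearson's r of the log2(CPM + 1) values was 0.52 after the mean of each plate was subtracted, and 0.46 without wells A12 to D12. Many of these points share values of 0, and cells of a plate share their sort and depth. The levels were not in step: among the 23 cells the ratio of *Il12a* to *Il2rg* counts lay between 0.121 and 1060, and the highest *Il2rg* cell (4530 CPM) and the highest *Il12a* cell (2976 CPM) each lacked the other gene. Cells with *Il12a* had medians of 11706, 4202 and 3853 genes on plates 1, 2 and 3 and those without it 10127.5, 2468.5 and 1231.5, and beyond the thinned cells its part in the overlap was not tested.

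**Figure D3:**
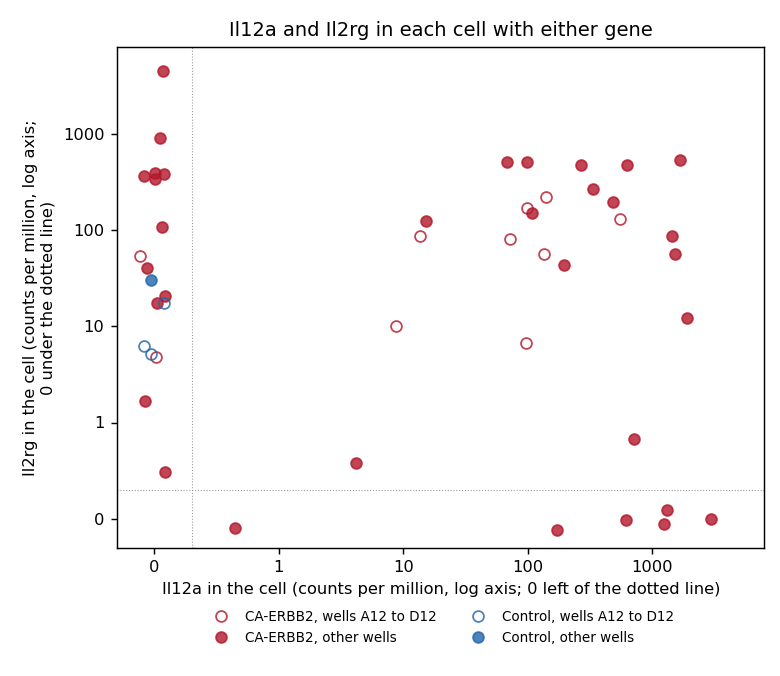
*Il12a* (horizontal) and *Il2rg* (vertical) in each cell with either gene, in CPM on log axes with 0 drawn beyond the dotted lines, for CA-ERBB2 (red) and Control (blue), with points at 0 spread for view. Open circles are wells A12 to D12. There are 43 CA-ERBB2 cells, 23 with both genes, 6 with *Il12a* alone and 14 with *Il2rg* alone, and the 4 Control cells have *Il2rg* alone.

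The comparison of cells with and without *Il2rg* for a partner chain turned with wells A12 to D12. Any of 7 chains (*Il4ra*, *Il7r*, *Il2ra*, *Il2rb*, *Il9r*, *Il15ra*, *Il21r*) was found in 12 of 37 *Il2rg* cells (32.4%, 18 to 49.8) and in 45 of 140 CA-ERBB2 cells without *Il2rg* (32.1%). These pooled shares mix plates, since 6 of the 37 cells but 53 of the 140 were on plate 1, where most genes per cell were found. By plate it was 4 of 6 against 29 of 53, 5 of 14 against 12 of 45 and 3 of 17 against 4 of 42, so the *Il2rg* cells had the higher share on each plate. Outside wells A12 to D12 it was 3 of 27 cells (11.1%, 2.35 to 29.2) against 43 of 138 (31.2%), pooled over the same uneven plates. By plate it was then 2 of 4 against 27 of 51, 1 of 10 against 12 of 45 and 0 of 13 against 4 of 42, so the *Il2rg* cells had the lower share on each plate, by little on plate 1. In thinned cells it was 3 of 5 against 19 of 54, 2 of 11 against 8 of 47 and 1 of 15 against 3 of 43. *Il4ra*, the chain for interleukin-4 and interleukin-13, was in 8 of 37 *Il2rg* cells against 18 of 140 others, and 7 of the 8 were in those wells. *Il15ra*, the high-affinity chain for interleukin-15, was in 7 of 37 against 17 of 140 cells, and 5 of the 7 were in those wells. *Il21r*, the interleukin-21 chain, was in 4 of 37 against 4 of 140 cells and *Il2ra*, the alpha chain for interleukin-2, in 3 of 37 against 1 of 140, but each of these *Il2rg* cells was in those wells. *Il2rb* and *Il9r*, the chains for interleukin-2 and interleukin-9, were in 1 *Il2rg* cell each, against 5 and 10 of 140 cells. The intervals are over cells, which are not replicates. *Il7r* was in none of the 37, which allows a share of up to 8.11%. *Jak3*, the kinase bound to the common gamma chain, was in 8 of 37 against 6 of 140 cells, but without those wells in 1 of 27 against 4 of 138. *Jak1*, the kinase of many partner chains, was in 28 of 37 against 71 of 140 cells, and in thinned cells in 21 of 31 against 69 of 144. Outside those wells *Jak1* was in 4 of 4 against 47 of 51, 7 of 10 against 17 of 45 and 7 of 13 against 5 of 42 cells of plates 1, 2 and 3. *Il2rg* cells had medians of 11353, 4383.5 and 4755 genes on the plates and the others 10095, 2228 and 1231.5, and the part of this in the shares was not tested.

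*Crlf2*, which joins the *Il7r* chain to bind TSLP and needs no common gamma chain, was in 21 of 37 *Il2rg* cells against 42 of 140 others. By plate it was 4 of 6 against 32 of 53, 9 of 14 against 8 of 45 and 8 of 17 against 2 of 42. Without wells A12 to D12 it was 2 of 4 against 31 of 51, 5 of 10 against 8 of 45 and 4 of 13 against 2 of 42. The *Il2rg* cells thus had the higher share on plates 2 and 3 with and without those wells, while on plate 1 the order turned. In thinned cells it was 3 of 5 against 17 of 54, 5 of 11 against 11 of 47 and 6 of 15 against 1 of 43. *Il13ra1*, which joins the *Il4ra* chain for interleukin-13, was in 2 of 6 against 30 of 53, 4 of 14 against 5 of 45 and 5 of 17 against 2 of 42 cells by plate. Without those wells it was in 0 of 4 against 28 of 51, 1 of 10 against 5 of 45 and 1 of 13 against 2 of 42.

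Neither *Il4ra* nor *Il7r* separated the genotypes by plate. *Il4ra* (chr7:125552120-125579474, plus strand) was at 7.51, 0.378 and 3.74 CPM on the CA-ERBB2 plates and 11.5, 9.33 and 0.855 CPM on the Control plates, which overlap. It was detected in 17, 6 and 3 CA-ERBB2 and in 13, 6 and 4 Control cells. *Il13ra1* accompanied it in 16 of 26 CA-ERBB2 and 13 of 23 Control cells, against 32 of 151 and 23 of 154 cells without *Il4ra*, and its share was higher with *Il4ra* on each of the 6 plates. Cells with *Il4ra* also had more genes on each plate, and the part of this in the pairs was not tested. The medians were 8256.5 against 2491 on CA-ERBB2 plate 2 and 10576.5 against 1185 on Control plate 2, for example. Without wells A12 to D12 *Il13ra1* was in 0 of 1 against 3 of 54 cells on CA-ERBB2 plate 3 and higher with *Il4ra* on the other 5. In thinned cells it was in 5 of 11 against 21 of 48 on CA-ERBB2 plate 1. It was in 1 of 2 against 4 of 56 on CA-ERBB2 plate 3, and plate 2 then had no cell with *Il4ra*. On Control plates 1 and 2 it was in 3 of 8 against 14 of 51 and 1 of 5 against 5 of 31. On Control plate 3 it was in 1 of 2 against 3 of 47. *Il7r*, the interleukin-7 chain (chr15:9505788-9530176, minus strand), was counted in 2 CA-ERBB2 cells of plate 2 and in no Control cell. A single cell, with 355403 counts in all, held 99.8% of the *Il7r* counts, at 2831 CPM.

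*Lif*, a cytokine of the interleukin-6 family (chr11:4257557-4272514, plus strand), was counted in few cells. Its level was 5.16, 8.73 and 0.00761 CPM on the CA-ERBB2 plates and 0.897, 0.0461 and 0.516 CPM on the Control plates. CA-ERBB2 plate 3 was below all Control plates, so the genotypes overlap, although the CA-ERBB2 mean was 9.52-fold higher. It was detected in 7, 3 and 1 CA-ERBB2 and in 2, 1 and 1 Control cells, and 3 CA-ERBB2 cells held 95.5% of its counts. Without the highest cell, at 851 CPM, CA-ERBB2 plate 2 stood at 0.0793 CPM. *Lif* was in 4 of the 29 *Il12a* cells and, outside wells A12 to D12, in 1 of 21.

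The receptor chains for LIF were the most widely found of the 10 genes, and their plates overlapped between genotypes. *Il6st* lies at chr13:112464070-112510086 and *Lifr* at chr15:7090614-7197489, both on the plus strand. *Il6st* was at 132, 65.3 and 62.7 CPM on the CA-ERBB2 plates and 140, 45.9 and 42.4 CPM on the Control plates. It was in 55, 18 and 16 CA-ERBB2 and 52, 16 and 15 Control cells, so plate 1 was highest in both genotypes. *Lifr* was at 76.1, 51.6 and 17.5 CPM on the CA-ERBB2 plates and 81.8, 37.3 and 54.0 CPM on the Control plates, in 44, 18 and 12 and in 36, 13 and 10 cells. For both genes the means differed by less than the SD between plates. The high share on plate 1 went with its number of genes per cell, and its part in the difference between plates was not tested.

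These chains were found together. Of the cells with *Lifr*, 61 of 74 CA-ERBB2 and 53 of 59 Control cells had *Il6st*, against 28 of 103 and 30 of 118 without *Lifr*. In thinned cells it was 46 of 60 and 43 of 52, against 29 of 115 and 29 of 92, the same order in both genotypes. Without wells A12 to D12 it was 50 of 63 and 43 of 49, against 27 of 102 and 29 of 116. Plate 1 gave most of these pairs, 44 of the 61 in CA-ERBB2 and 34 of the 53 in Control. By plate it was 44 of 44 against 11 of 15, 9 of 18 against 9 of 41 and 8 of 12 against 8 of 47 in CA-ERBB2, and 34 of 36 against 18 of 23, 10 of 13 against 6 of 46 and 9 of 10 against 6 of 49 in Control, so the order held on each plate. On every plate cells with *Lifr* also had more genes, with medians of 3933.5 against 2446 on CA-ERBB2 plate 2 and 10683 against 265.5 on Control plate 2, for example, and its part in the pairs was not tested. Of the 29 *Il12a* cells, 16 had *Il6st*, and of the 16 with at least 100 CPM of *Il12a* outside wells A12 to D12, 4 had it.

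*Il27ra*, the chain that binds interleukin-27 with gp130 (chr8:84030294-84042589, minus strand), was at 2.31, 20.3 and 1.03 CPM on the CA-ERBB2 plates and 1.61, 0.554 and 0.194 CPM on the Control plates. The genotypes overlap, and 1 CA-ERBB2 cell of plate 2, at 777 CPM, held 82.8% of the CA-ERBB2 counts. Without it that plate stood at 0.117 CPM. *Il27ra* was in 9, 3 and 4 CA-ERBB2 and in 7, 5 and 3 Control cells, and *Il6st* was in 15 of these 16 CA-ERBB2 and 13 of these 15 Control cells. Among cells without *Il27ra*, *Il6st* was in 74 of 161 CA-ERBB2 and 70 of 162 Control cells. On plate 1 alone it was in 46 of 50 and 45 of 52 of them. In thinned cells *Il6st* was in 6 of 6 and 0 of 1 *Il27ra* cells of CA-ERBB2 plates 1 and 2. On Control plates 1, 2 and 3 it was then in 1 of 2, 0 of 1 and 1 of 1. *Il2rg* was in 11 of the 16 CA-ERBB2 cells with *Il27ra*. By plate it was 4 of 9 against 2 of 50, 3 of 3 against 11 of 56 and 4 of 4 against 13 of 55. Without wells A12 to D12 it was 2 of 7 against 2 of 48, 1 of 1 against 9 of 54 and 3 of 3 against 10 of 52. CA-ERBB2 cells with *Il27ra* had medians of 11736, 14941 and 8426.5 genes by plate and the others 9831.5, 2922.5 and 1755. The part of this in these pairs was not tested. The receptor chains for interleukin-12 did not occur in the same cells: *Il12rb2* was in 24 CA-ERBB2 and 16 Control cells and *Il12rb1* in 4 and 1, and none had both, which allows up to 12.5% of the 24.

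**Figure D4:**
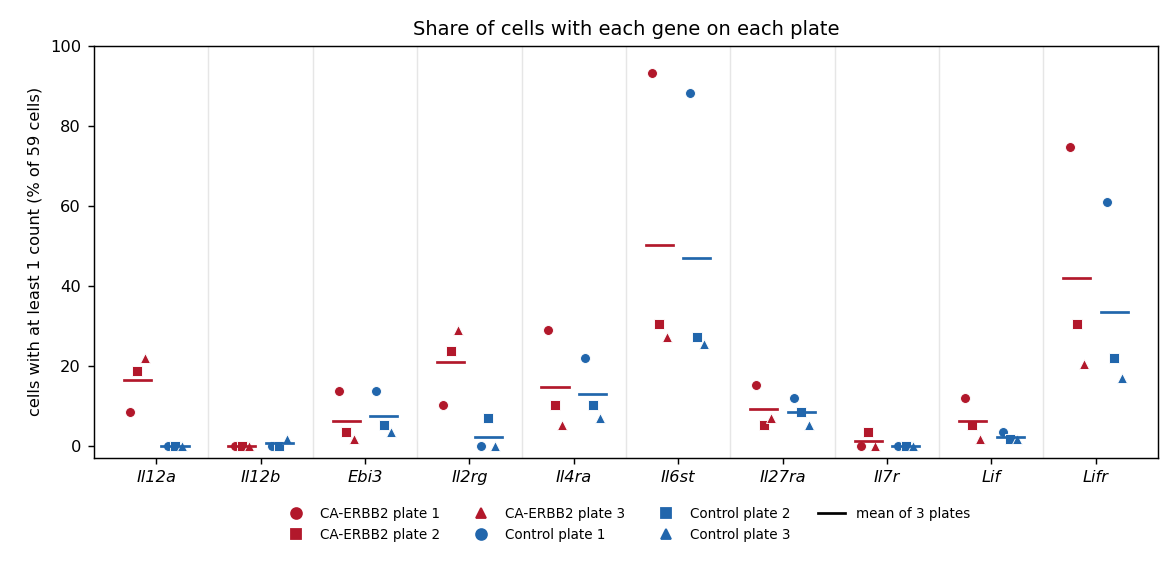
Share of the 59 cells of each plate with at least 1 count of each of the 10 genes (%), for CA-ERBB2 (red) and Control (blue). Circles, squares and triangles are plates 1, 2 and 3, and lines the mean of 3 plates. *Il12a* and *Il2rg* differ in the share of cells, *Ebi3* and *Il27ra* overlap, and plate 1 is highest for *Il6st* and *Lifr* in both genotypes.

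Per kilobase of exon, the mean level of *Il12a* in CA-ERBB2 plates was 83.1 ± 69.5 CPM per kb (SD, n = 3), and that of *Il2rg* was 29.2 ± 25.8. *Il6st* followed with 7.80 ± 3.53, *Lifr* with 4.49 ± 2.73 and *Il27ra* with 2.25 ± 3.08 CPM per kb. *Lif*, *Il4ra*, *Il7r* and *Ebi3* were at 1.06 or less, and *Il12b* was at 0. With SDs close to the means, none of these neighbours in the order differs beyond the spread between plates. In Control plates the order was *Ebi3* (20.4 ± 24.7 CPM per kb), *Il6st* (6.85 ± 4.98) and *Lifr* (5.35 ± 2.09), then *Il4ra* (1.21 ± 0.939), with *Il2rg*, *Il27ra*, *Lif*, *Il12b*, *Il7r* and *Il12a* at 0.228 or less. Without its highest cell *Ebi3* was at 4.77 ± 6.07 CPM per kb, under the means of *Il6st* and *Lifr*, so its first place rests on 1 cell. In a plate sum, fewer cells with a gene and less RNA per cell cannot be told apart, which is why cells are given beside each level.

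The genes most like *Il12a* over all CA-ERBB2 cells, by Pearson's r of plate-centred log2(CPM + 1) among 15640 genes found in at least 10% of the cells, were *Dmp1* (r = 0.70), *Ifitm5* (0.70), *Hapln1* (0.64), *Bglap2* (0.64) and *Ptgis* (0.63). *Dmp1* codes for a matrix protein of bone and dentin, *Ifitm5* for a membrane protein of osteoblasts, *Hapln1* for a link protein of hyaluronan, *Bglap2* for an osteocalcin and *Ptgis* for prostacyclin synthase. *Bglap2* has near-identical paralogs, and reads may be split among them. The study had listed *Il12a*, *Dmp1*, *Bglap2* and *Ptgis* as raised in 1 cluster of these same cells, so their likeness is a description only. The genes most like *Il2rg* were *Gm16104* (0.72), an antisense gene within *Nfic*, the somatostatin receptor *Sstr2* (0.62), *Dmp1* (0.60), the serpin *Serpinb2* (0.57) and *Hapln1* (0.57). *Dmp1* was in 28 of 29 *Il12a* cells and 35 of 37 *Il2rg* cells, and in 63 CA-ERBB2 and 13 Control cells in all. Among the 10 genes themselves, no r with *Il12a* except that of *Il2rg* was above 0.27, and that of *Ebi3* was 0.18 in all wells and 0.0028 without wells A12 to D12. The points share libraries and depth, and no p is given.

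Cells with at least 100 CPM each of *Spp1*, *Timp1*, *Mmp9* and *Dmp1*, the osteopontin network that the study described, numbered 36 in CA-ERBB2 and left 141 other CA-ERBB2 cells. *Il12a* was in 21 of these 36 (58.3%) and in 8 of the 141 others (5.67%), and the network cells held 82.8% of its counts. The study had listed *Il12a* as raised in its cluster of CA-ERBB2 cells enriched for the network genes, so this share is a description only. *Il2rg* was in 23 of 36 (63.9%) against 14 of 141 (9.93%), with 68.9% of its counts. *Ebi3* was in 4 of 36 (11.1%) against 7 of 141 (4.96%). Of its counts in CA-ERBB2 cells 81.0% were in the 141 others, but its mean level over cells was close, at 0.257 CPM against 0.319 CPM. On plates 1, 2 and 3 *Ebi3* was in 2 of 3 against 6 of 56, 1 of 14 against 1 of 45 and 1 of 19 against 0 of 40 cells. By plate *Il12a* was in 3 of 3 against 2 of 56, 7 of 14 against 4 of 45 and 11 of 19 against 2 of 40 cells, and *Il2rg* in 3 of 3 against 3 of 56, 7 of 14 against 7 of 45 and 13 of 19 against 4 of 40. The network cells had more genes on each plate, with medians of 11706, 3135.5 and 3404 against 10127.5, 2929 and 1227, and the part of this in the shares was not tested. *Lif* (4 of 36 and 7 of 141), *Il6st* (16 of 36 and 73 of 141) and *Lifr* (13 of 36 and 61 of 141) were found at closer pooled shares. These mix plates, since 3 of the 36 cells but 56 of the 141 were on plate 1, so they are given by plate. *Il6st* was in 3 of 3 against 52 of 56, 5 of 14 against 13 of 45 and 8 of 19 against 8 of 40. *Lifr* was in 2 of 3 against 42 of 56, 5 of 14 against 13 of 45 and 6 of 19 against 6 of 40. *Lif* was in 2 of 3 against 5 of 56, 1 of 14 against 2 of 45 and 1 of 19 against 0 of 40. The network cells thus had the higher share on each plate, except for *Lifr* on plate 1. *Il27ra* was in 7 of 36 against 9 of 141 cells.

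The cells with *Il12a* or *Il2rg* were also set against markers of other cell types. The restriction to wells other than A12 to D12 was chosen after the data were seen. Outside wells A12 to D12 there were 33 such CA-ERBB2 cells. The leukocyte gene *Ptprc*, the myeloid genes *Tyrobp*, *Adgre1* and *Aif1* and the T cell gene *Cd3e* had 0 counts in all 33, which allows shares of up to 9.09%. In the 132 other CA-ERBB2 cells outside those wells, *Ptprc* was in 6 and *Tyrobp* in 9. The macrophage list of 12 genes had counts for 8 of them in the 33 cells, with a summed level of 39.1 to 236 CPM by plate, against 35.1 to 1339 CPM in the 132 others and 497 to 1993 CPM in Control cells outside those wells. At least 3 of its genes were in 3 of the 33 cells (9.09%) and in 11 of the 132 (8.33%), and with the wells included in 11 of 43 (25.6%). *Csf1r*, a receptor of macrophages, was in 10 of 33 and 44 of 132 cells, and *Fcer1g* in 7 of 33 and 9 of 132. The lymphocyte list of 12 genes was at 1.90 to 31.3 CPM, against 0.293 to 14.4 CPM in the others, and 3 or more of its genes were in 0 of the 33 cells. Of the list of 10 dendritic cell and granulocyte genes, *Cd74*, the invariant chain, was in 6 of 33 against 3 of 132 cells, and *H2-Aa* was at 0. With the wells included, *Ptprc* was in 6 of 43 cells with *Il12a* or *Il2rg*.

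Supporting cell markers had a lower plate sum in the same 33 cells. The summed level of the 10 markers was 235 to 982 CPM by plate, against 2519 to 4229 CPM in the 132 others, without overlap between the ranges. The median over single cells, however, was 217 CPM in the 33 and 230 CPM in the others, and at least 3 of the markers were in 12 of 33 and 57 of 132 cells. *Sox2* was in 1 of 33 against 34 of 132 cells, *Sox10* in 2 against 40, *Prox1* in 2 against 29 and *Fgfr3* in 8 against 41. *Epcam*, a gene of epithelial cells on the same list, was in 15 of 33 against 49 of 132. All 10 markers had counts in the 33 cells, and the rest of the list is not given gene by gene. Of mesenchyme genes, *Col1a1* was in 28 of 33 against 51 of 132 cells and *Dcn* in 15 of 33 against 69 of 132. At least 3 of the 8 mesenchyme markers were in 30 of 33 against 87 of 132 cells, and at least 3 of the 8 hair cell markers were in 1 of the 33. The summed level of the 8 mesenchyme markers was 22871, 4995 and 3926 CPM on plates 1, 2 and 3, against 7593, 5560 and 5915 CPM in the others. It was thus higher on plate 1 and lower on plates 2 and 3, while its median over single cells was 4491 CPM against 1899 CPM. These shares of cells, and those of the leukocyte markers above, are pooled over plates. Outside wells A12 to D12, plates 1, 2 and 3 held 3, 8 and 10 cells with *Il12a* and 4, 10 and 13 with *Il2rg*. Fewer of the 33 cells thus came from plate 1, where most genes per cell were found, and its part in the shares was not tested. All cells were sorted as GFP+, and which cells these were was not tested.

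For the comparison across all genes, counts were summed per plate and fitted with edgeR's quasi-likelihood test on 3 plates against 3, and a gene was called where the p adjusted by Benjamini-Hochberg was under 0.05 with an absolute log2 fold change over 1. Of 21416 genes tested, 1 was called (0.00467%) and 5.16% had an unadjusted p under 0.05. Of the 10 genes 8 were tested, since *Il12b* and *Il7r* did not pass the filter on low counts, and 0 were called. Every CA-ERBB2 plate was above every Control plate for 2 of the 8, against 2.78% of all genes tested, and below for 1 of the 8, against 5.11%. Because this contrast chose the genes, nothing is read from these counts. DESeq2 called 235 of all genes, among them *Il12a* and *Ebi3* of the 10.

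The genes of the pathways were counted from lists of IL-12 family, common gamma chain and gp130 ligands and receptors, JAKs and STATs, and targets of STATs. Of the 56 that are not among the 10, 47 were tested. The edgeR test called 0 of them in either direction, 4 (8.51%) had an unadjusted p under 0.05, and DESeq2 called 0. Their median log2 fold change was -0.071, against -0.022 over all genes, with 23 above and 24 below 0. Of these 4, the one that was higher in CA-ERBB2 was *Crlf2* (log2 fold change 3.06 ± 1.02 SE, edgeR adjusted p = 0.911). It was at 10.7, 33.2 and 21.5 CPM on the CA-ERBB2 plates and 6.49, 0.784 and 4.01 CPM on the Control plates. Its plates did not overlap. *Il9r* was not among the 47 tested. It had counts in 11 CA-ERBB2 cells, 9 of them outside wells A12 to D12, and in 0 Control cells. Its level was 0.563 ± 0.490 CPM on the CA-ERBB2 plates (mean ± SD) and 0 on the Control plates. Each CA-ERBB2 plate was above every Control plate.

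Those that were lower at the unadjusted level were *Il15*, *Il15ra* and *Osm*, the last named after its value was seen. *Il15*, the cytokine that is presented by the *Il15ra* chain, was at 3.80, 0.321 and 0.0989 CPM on the CA-ERBB2 plates and 3.39, 4.32 and 282 CPM on the Control plates, which overlap (edgeR adjusted p = 0.886). A single Control cell held 96.6% of the Control counts of *Il15*. *Il15ra* was at 10.1, 1.12 and 1.74 CPM against 15.2, 93.1 and 2.28 CPM, and *Osm*, the cytokine oncostatin M, at 0.0053, 0.571 and 0.548 CPM against 38.3, 46.3 and 0 CPM (edgeR adjusted p = 0.911 for each). All of these overlapped. In Control, 1 cell held 73.2% of the counts of *Il15ra* and 3 cells held 99.5% of those of *Osm*. The 11 genes of JAKs and STATs and the 12 targets and inhibitors of STAT signalling were all tested, and none reached an unadjusted p under 0.05, with median log2 fold changes of 0.079 and -0.16.

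**Figure D5:**
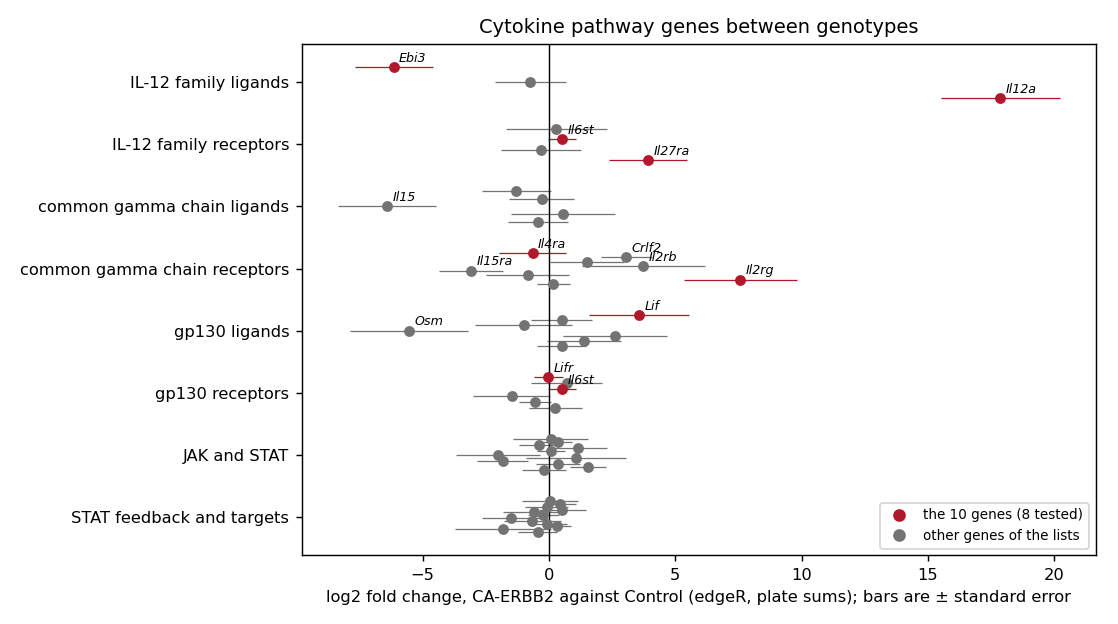
Log2 fold change of CA-ERBB2 against Control for the tested genes of 8 cytokine lists (edgeR on plate sums), with standard errors as bars. The 8 tested of the 10 genes are red and the other genes grey, and *Il6st* stands in the pair of lists that hold it. The fitted value of *Il12a* depends on the prior count because Control is at 0 and is no bound. The JAK and STAT genes lie on both sides of 0, from -2.02 (*Jak3*) to 1.55 (*Stat3*).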

How the data were processed

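Single GFP+ SCs were profiled with the SMART-Seq Single PLUS kit. The authors made whole-number read counts per gene and cell from the reads with STAR 2.7.6a and featureCounts of Subread 2.0.1, on GRCm38 with Gencode M25, and these deposited counts were not normalized. Reads were counted by strand, and no molecular identifiers were used.

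Counts were divided by the cell's or plate's total to give CPM. A gene was detected at 1 count or more. Counts were summed over the 59 cells of each plate and tested with edgeR 4.0.16 (R 4.3.3, TMM, filterByExpr, quasi-likelihood), with DESeq2 1.42.0 and limma 3.58.1 as alternatives. The test was first run on simulated data. Gene pairs and network cells were also counted within each plate, a choice made after the data were seen. P-values measure only the spread between plates, 3 per genotype. No doublet caller was run. The authors used scatter in the sort to exclude doublets, and whether wells A12 to D12 each held 1 cell was not tested. Exon lengths and positions came from Gencode M21, and promoters from RefSeq.

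The 10 genes and the lists were chosen with earlier results of these data known. Named beside the 10 were pathway genes that were called, the 3 with the smallest unadjusted p in each direction, the pathway genes that pair with one of the 10, and the 5 genes most like *Il12a* and *Il2rg*. *Il12a* RT-qPCR values and immunostaining were not analysed here.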

Additional observations from a re-analysis of the deposited data

How the results depend on the processing

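Over all genes, 1 was called by edgeR, 285 without the filter on low counts, 235 by DESeq2 and 11 by limma with each cell weighted equally. Of the cytokine pathway genes, 0 were called by edgeR, 4 without the filter (*Ebi3*, *Il12a*, *Il15* and *Il2rg*) and 2 by DESeq2 (*Ebi3* and *Il12a*), and the cause was not tested. Leaving out 1 plate at a time gave 0 to 2 calls over all genes, 0 without Control plate 1 or Control plate 3 and 2 without CA-ERBB2 plate 1, and 0 to 1 among the pathway genes (*Il12a* without CA-ERBB2 plate 1). The unfiltered fit moved the median log2 fold change of all genes to 0.13. With the plate number as a replicate block, 1 gene and 0 pathway genes were called. Same-numbered plates correlated at 0.215, 0.0822 and 0.0773, not all above 0.1, so the plates were taken to share only a number. Each plate correlated best with its own number, and plate 1 of both genotypes had the most genes per cell. This is a hint from the data, and the labels do not say which plates were sorted together. With the block the log2 fold change of *Il2rg* was 10.99, against 7.58 without it. Without wells A12 to D12, or with cells of at least 100000 counts and under 20% mitochondrial counts, the calls were 1 and 0.

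Leaving out a plate, the share of *Il12a* cells with *Ebi3* or *Il12b* ran from 12.5% to 31.25%, and that of *Il2rg* cells with a partner chain from 25.8% to 45.0%. Over 12 alternatives the log2 fold change of *Lifr* (-0.29 to 0.30) changed sign in 4, and that of no other tested gene of the 10 did. The value of *Il2rg* ran from 5.14 to 16.89, the last without Control plate 2, which held all its Control counts. That of *Il27ra* was 1.34 without CA-ERBB2 plate 2. With each cell weighted equally (limma) the values were 5.58 for *Il12a*, -2.83 for *Ebi3*, 5.14 for *Il2rg* and 0.26 for *Il27ra*, against 17.86, -6.15, 7.58 and 3.91 in the edgeR fit. The 33 Control cells under 100000 counts limit what their zeros show.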

Other observations

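*Gm16712*, which overlaps *Ebi3* on the opposite strand, was counted in 29 CA-ERBB2 and 35 Control cells, among them every cell with *Ebi3*. The highest Control level of *Il27ra*, 604 CPM, came from 4 counts in a cell of plate 3 with 6619 counts in all. All 4 Control cells with *Il2rg* had *Il15ra*, and 3 had *Il4ra*. *Il12rb2* was found with *Il6st* in 23 of 24 CA-ERBB2 and 16 of 16 Control cells, against 66 of 153 and 67 of 161 cells without *Il12rb2*. On plate 1, with 19 of the 24 and 10 of the 16 cells, *Il6st* was in 36 of 40 and 42 of 49 others. Cells with *Il12rb2* had medians of 12374 and 11807.5 genes and the others 3130 and 3165, and the part of this was not tested.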
